A study of Homo sapiens with 2 samples.

Results

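The nuclear receptors are transcription factors that bind DNA through a conserved zinc finger domain and, in many members, switch between repression and activation when a small lipophilic ligand binds. They were followed in U937, a human acute myeloid leukemia cell line with monocytic features. Of 44 receptor genes listed, 39 had an array row annotated with their symbol alone, out of 22465 genes measured this way. NR1H4, NR1I2, HNF4A, NR2F2 and NR0B1 were not analysed here. U937 cells transduced with TWIST-1 and U937 cells transduced with the empty vector, both sorted for green fluorescent protein, were compared on Affymetrix Human Transcriptome Array 2.0, with 1 array for each. Each level is the deposited log2 value after quantile normalization, and each log2 ratio is that value in TWIST-1-transduced cells minus the one in vector-transduced cells. With 1 array per condition there was no replicate error and no test, and TWIST-1 cannot be told apart from a difference between the 2 cultures or arrays.

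Steroid receptors such as the glucocorticoid receptor wait in the cytoplasm on HSP90 chaperones until hormone arrives, whereas retinoic acid, vitamin D and PPAR receptors sit in the nucleus as partners of the retinoid X receptors. Other members are orphans, for which no ligand was known when they were found. In myeloid cells the family is known for the response to retinoic acid, which drives differentiation in acute promyelocytic leukemia, where RARA is part of the causal fusion protein. Vitamin D is known to push U937 cells toward a more mature monocytic state.

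TWIST1 itself had a log2 level of 4.34 on the TWIST-1 array and 4.13 on the vector array, a log2 ratio of 0.21, short of the 1.2-fold threshold used by the study (a log2 ratio of 0.26). As the position of its probes on the transgene was not examined, this is a weak check of the labels. The study also reports real-time PCR and Western blots of TWIST-1 in its transduced U937 line, which were not examined here. Of 11 monocytic marker genes measured, 9 lay above the median gene level on both arrays, 5 had ratios above 0 and 6 below, 1 was at least 1.2-fold lower and 0 higher, and the median ratio was -0.04. Their linear levels summed to 4673 in TWIST-1-transduced cells and 5287 in vector-transduced cells, a sum led by the brightest marker, LYZ, at a log2 level of 11.36 with TWIST-1 and 11.63 with vector. None of 5 T cell markers lay above the median gene level on both arrays, but 3 of 4 B cell markers and 4 of 5 megakaryocytic markers did, with levels of B cell markers up to 5.85 with TWIST-1 and 5.90 with vector and of megakaryocytic markers up to 5.87 with TWIST-1 and 5.53 with vector. Above that level on both arrays were also 1 of 3 erythroid, 2 of 5 epithelial and 1 of 4 fibroblast markers. The highest erythroid marker, KLF1, reached 6.90 with TWIST-1 and 6.55 with vector. The highest epithelial marker, KRT8, reached 6.05 with TWIST-1 and 6.02 with vector. KLF1 (0.35) and the megakaryocytic marker GP9 (0.37) were at least 1.2-fold higher, and their part in any result was not tested. A place above the median gene was thus not by itself a sign of expression, and a level also depends on the probes of a row, so the order of receptors by level is not an order of mRNA abundance.

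In TWIST-1-transduced U937 cells all measured receptors but NR4A2 stood within 1.2-fold of their level in vector-transduced cells. Of the 39 receptors, 1 (NR4A2) was at least 1.2-fold lower and 0 were at least 1.2-fold higher, where 2.85% of all genes were lower and 2.71% higher by that rule, or 5.56% in either direction. Log2 ratios of the receptors ran between -0.30 and 0.25 with a median of 0.08, against 0.04 over all genes. The ratio was above 0 for 31 receptors (79.5%), below 0 for 7 and exactly 0 for HNF4G, and 60.0% of all genes were above 0. The count above 0 was 29 once the median gene's ratio had been subtracted (centred ratios), 27 after loess normalization and 30 after another quantile normalization, and in the same settings the share of all genes above 0 was 50.0%, 51.9% and 54.6%.

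**Figure D1:**
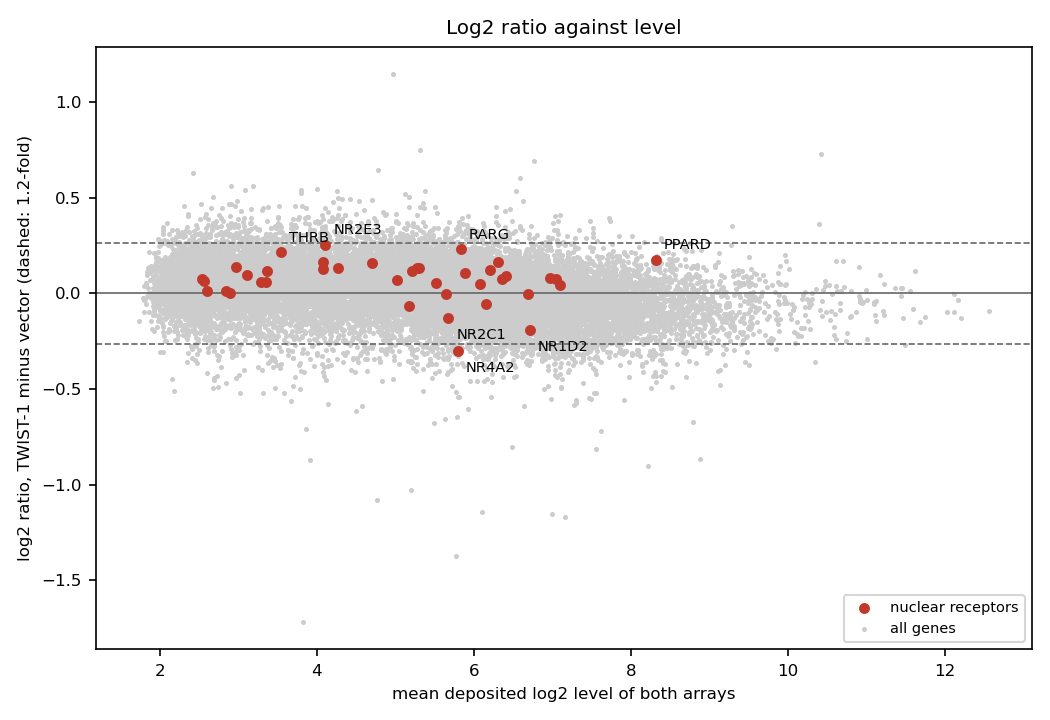
Log2 ratio (TWIST-1 minus vector) against the mean log2 level of both arrays, with 1 point per gene, all 22465 genes in grey and the 39 nuclear receptors in red. The dashed lines mark 1.2-fold, and NR4A2 is the only receptor outside them.

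The median gene level was 5.21 on the TWIST-1 array and 5.15 on the vector array. On both arrays 49.1% of all genes and 56.6% of protein-coding genes lay above it. So did 21 receptors (53.8%). They were THRA, RARA, RARG, PPARA, PPARD, PPARG, NR1D1, NR1D2, RORB, VDR, RXRA, RXRB, NR2C1, NR2C2, NR2F1, NR2F6, ESRRA, NR3C1, NR4A1, NR4A2 and NR5A1. NR6A1 lay above it on the vector array only, at 5.14 on the TWIST-1 array and 5.21 on the vector array. Just inside stood NR5A1, at 5.27 with TWIST-1 and 5.15 with vector, and just outside it stood NR0B2, at 5.05 with TWIST-1 and 4.98 with vector. Of the 21, PPARG, NR1D1, NR2F1 and NR5A1 were not above the median of protein-coding genes alone, which was 5.57 on the TWIST-1 array and 5.54 on the vector array and left 17 receptors above it. Above the upper quartile of all genes on both arrays (23.9% of genes) were 6 receptors, PPARD, NR2C2, THRA, NR2F6, NR1D2 and RXRB. Among the 21 receptors above the median gene, 15 (71.4%) had a ratio above 0, where 50.5% of all 11038 genes above it did. The median ratio of the 21 receptors was 0.08, against 0.0034 for those 11038 genes.

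**Figure D2:**
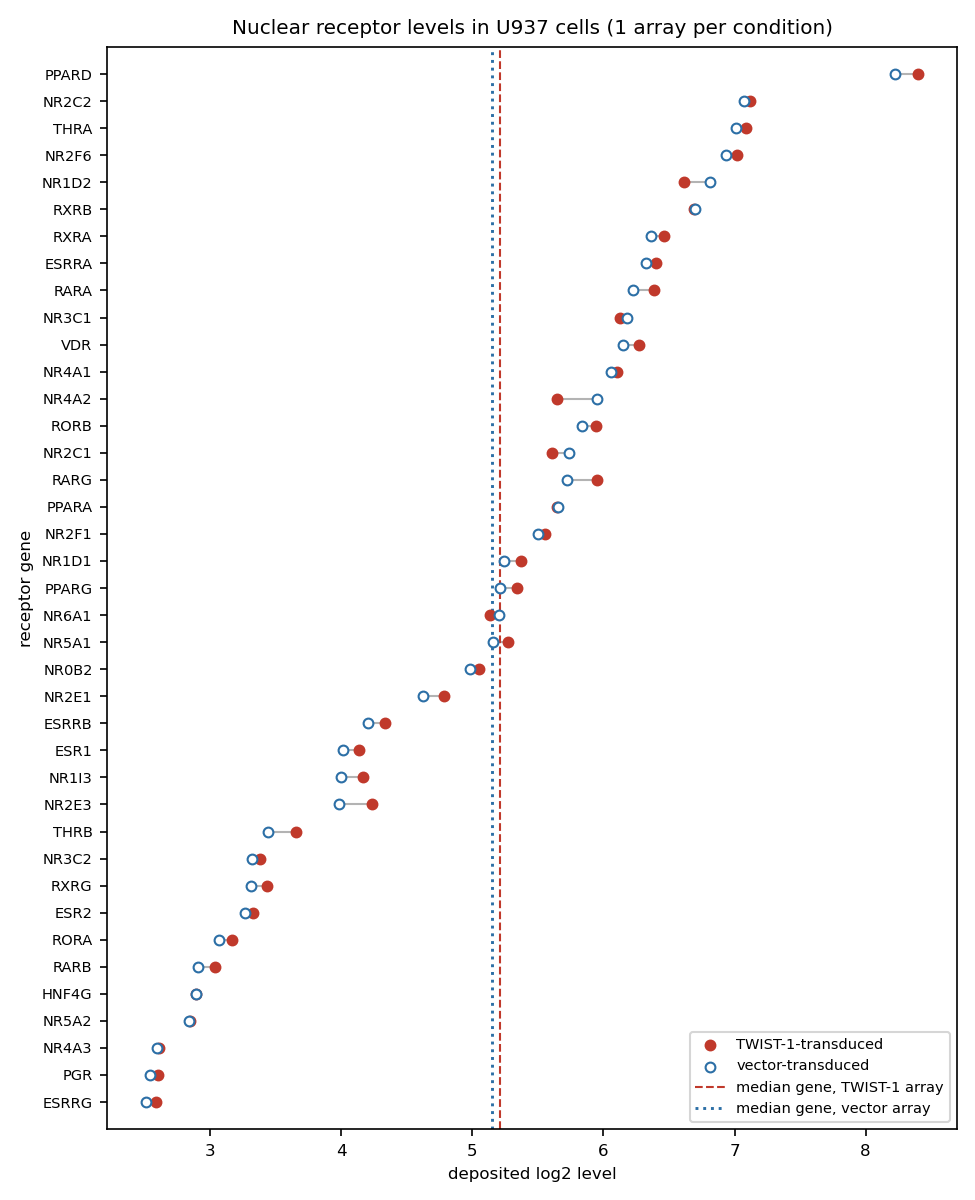
Deposited log2 level (horizontal axis) of each of the 39 receptor genes (rows), with filled red points for TWIST-1-transduced and open blue points for vector-transduced U937 cells, 1 array each, and vertical lines at the median gene of each array. PPARD has the highest level, ESRRG the lowest, and the joined points of NR4A2 lie farthest apart.

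The orphan receptors of the NR4A group are immediate-early genes, induced within a short time of a stimulus. NR4A2, also called NURR1, had a log2 level of 5.65 in TWIST-1-transduced cells and 5.95 in vector-transduced cells. Its log2 ratio of -0.30 (1.23-fold lower) was the lowest in the family, and 386 of the 22465 genes (1.72%) had a ratio as low or lower. It stayed past 1.2-fold at -0.34 with centred ratios, -0.34 after loess normalization and -0.33 after another quantile normalization, and was short of it at -0.23 when an offset of 16 was added to the linear values. NR4A1, or NUR77, lay at 6.10 in TWIST-1-transduced cells and 6.06 in vector-transduced cells, a ratio of 0.05. NR4A3, or NOR1, was dim at 2.61 with TWIST-1 and 2.59 with vector, with a ratio of 0.01, which turned to -0.03 with centred ratios. Neither paralog of NR4A2 was thus near 1.2-fold.

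Of 15 other immediate-early and stimulus-response genes measured, 4 were at least 1.2-fold lower and 0 higher, with a median ratio of -0.01. Of these genes 13 lay above the median gene level on both arrays, and of all genes above it 4.11% were lower by that rule, against 2.85% of all genes. FOSB, an AP-1 subunit, had levels of 7.76 on the TWIST-1 array and 8.66 on the vector array, a ratio of -0.90. FOS, its relative, had 7.15 with TWIST-1 and 7.96 with vector, a ratio of -0.81. The zinc finger gene KLF6 (-0.40) and the AP-1 gene JUNB (-0.27, or -0.25 after loess normalization and -0.22 after another quantile normalization) were the other 2, named after their values were seen. The highest ratios of this list, both 0.21, were those of EGR3 and ATF3. The list thus held ratios on both sides of 0, and the count lower was 5 with centred ratios and 3 after each of the other 2 scalings.

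The REV-ERB receptors NR1D1 and NR1D2 repress the clock gene BMAL1, and the ROR receptors activate it through the same DNA elements. NR1D2 had levels of 6.61 in TWIST-1-transduced and 6.81 in vector-transduced cells, and its ratio of -0.19 was the second lowest of the family. NR1D1 had 5.37 with TWIST-1 and 5.24 with vector, a ratio of 0.13, so the paralogs stood on opposite sides of 0 under each of the 4 scalings. NR1D1 overlaps THRA on the opposite strand of chromosome 17, and how the array handles strand was not looked at. RORB had 5.95 with TWIST-1 and 5.84 with vector, a ratio of 0.11, and RORA, which was dim, had 3.16 with TWIST-1 and 3.07 with vector, with a ratio of 0.10. Of 15 clock genes measured beside them, 0 were past 1.2-fold in either direction and the median ratio was 0. BMAL1 itself had 5.21 with TWIST-1 and 5.16 with vector, a ratio of 0.05. The lowest ratios were those of the clock repressors BHLHE40 (-0.21) and CRY1 (-0.17), and the highest those of the PAR bZIP factors DBP (0.16) and TEF (0.14).

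TWIST-1 belongs to the basic helix-loop-helix factors, which bind E-boxes (CANNTG, the same on both strands). RefSeq windows of 300 bases around annotated gene starts (GRCh38.p14) were found for 39 of the 44 listed receptors, and not for NR4A2, VDR, HNF4G, NR2F6 and NR0B2. An E-box lay in 65 of 91 receptor windows (71.4%), where 68.7% of all 35116 windows hold one. By gene, 33 of the 39 receptors (84.6%) had an E-box in at least 1 window, where 73.1% of all symbols had one. CACGTG, the form of the E-box that the clock factors CLOCK and BMAL1 prefer, was searched after the values were seen and counts among the E-boxes. It lay in 9 receptor windows (9.89%) and 7.26% of all windows, and by gene in 7 receptors (17.9%) and 8.77% of all symbols. The number of windows differs between genes. Windows of 1 gene can overlap and share sequence. The windows below belong to the 2 lowest (NR1D2, NR2C1) and the 2 highest (RARG, PPARD) log2 ratios among receptors above the median gene level that had a window, so that promoters from both ends of the ratios can be set side by side, with E-boxes in capitals. NR1D2 has 2 annotated windows, chr3:23945036-23945335 and chr3:23945871-23946170 on the plus strand. NR2C1 lies at chr12:95073569-95073868 on the minus strand, PPARD at chr6:35342308-35342607 on the plus strand and RARG at chr12:53232160-53232459 on the minus strand.
NR1D2, upstream window: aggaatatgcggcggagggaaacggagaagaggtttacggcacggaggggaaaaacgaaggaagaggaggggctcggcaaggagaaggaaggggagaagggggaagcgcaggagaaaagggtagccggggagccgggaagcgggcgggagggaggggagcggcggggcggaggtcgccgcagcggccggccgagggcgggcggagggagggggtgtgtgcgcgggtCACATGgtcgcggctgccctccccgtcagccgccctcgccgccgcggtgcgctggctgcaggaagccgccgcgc
NR1D2, downstream window: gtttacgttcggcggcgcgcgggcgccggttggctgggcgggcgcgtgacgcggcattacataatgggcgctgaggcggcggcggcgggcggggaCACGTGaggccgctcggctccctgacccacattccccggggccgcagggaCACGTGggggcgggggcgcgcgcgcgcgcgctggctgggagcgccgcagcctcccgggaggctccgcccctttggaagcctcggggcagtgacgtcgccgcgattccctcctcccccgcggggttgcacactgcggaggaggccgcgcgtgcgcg
NR2C1: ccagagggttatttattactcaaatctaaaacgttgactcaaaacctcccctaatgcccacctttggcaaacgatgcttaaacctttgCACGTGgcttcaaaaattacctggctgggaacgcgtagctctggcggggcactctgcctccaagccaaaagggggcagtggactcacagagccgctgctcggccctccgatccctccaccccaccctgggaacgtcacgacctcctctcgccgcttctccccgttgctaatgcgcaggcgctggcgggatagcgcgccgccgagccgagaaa
RARG: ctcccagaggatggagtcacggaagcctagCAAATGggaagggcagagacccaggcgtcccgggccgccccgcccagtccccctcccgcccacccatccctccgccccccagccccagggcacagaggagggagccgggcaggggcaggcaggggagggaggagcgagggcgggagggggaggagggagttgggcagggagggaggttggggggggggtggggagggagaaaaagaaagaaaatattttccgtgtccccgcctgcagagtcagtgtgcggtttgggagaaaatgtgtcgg
PPARD: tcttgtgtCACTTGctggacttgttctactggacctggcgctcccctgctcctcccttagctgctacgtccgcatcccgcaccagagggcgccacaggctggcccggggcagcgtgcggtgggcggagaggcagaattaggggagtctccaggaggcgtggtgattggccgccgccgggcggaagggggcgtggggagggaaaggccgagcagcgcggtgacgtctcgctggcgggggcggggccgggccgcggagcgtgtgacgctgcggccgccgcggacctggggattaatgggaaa
The downstream window of NR1D2 holds 2 copies of CACGTG and that of NR2C1 holds 1. Those of RARG and PPARD hold 1 E-box each, of another form. The other 5 receptors with CACGTG in a window were RARA (log2 ratio 0.16), NR5A1 (0.11), ESR2 (0.06), PGR (0.06) and NR2F2, which was not analysed on the arrays. Receptors with CACGTG thus lay on both sides of 0. A match is a description of the letters in these windows, and binding was not measured.

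The retinoic acid receptors had ratios above 0 in all 3 genes, under each of the 4 scalings. RARG had a log2 level of 5.95 in TWIST-1-transduced cells and 5.72 in vector-transduced cells, a ratio of 0.23 (1.17-fold), the highest among receptors above the median gene. RARA had 6.38 with TWIST-1 and 6.22 with vector, a ratio of 0.16. RARB, itself known as a retinoic acid target, was dim at 3.04 with TWIST-1 and 2.90 with vector, with a ratio of 0.14. The retinoid X receptors, their obligate partners, were nearer to 0. RXRA had 6.46 with TWIST-1 and 6.37 with vector, a ratio of 0.09, and the dim RXRG had 3.43 with TWIST-1 and 3.31 with vector, a ratio of 0.12. RXRB had 6.69 with TWIST-1 and 6.70 with vector in its brightest row, a ratio of -0.01 that turned to 0.01 after another quantile normalization. It was the only receptor with several rows, 6 in all for the main chromosome and haplotype copies of its locus, whose ratios lay between -0.04 and -0.01.

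The vitamin D receptor VDR had levels of 6.27 in TWIST-1-transduced cells and 6.15 in vector-transduced cells, a ratio of 0.12. Of 17 target genes of the retinoid and vitamin D receptors measured, 0 were past 1.2-fold. Ratios were above 0 for 14 of them (82.4%, against 60.0% of all genes). Of the 17, 9 were not above the median gene level on both arrays, and 69.1% of all such genes had ratios above 0. The median of the 17 was 0.09 (0.04 with centred ratios). The antimicrobial peptide gene CAMP, a vitamin D target, had the highest ratio at 0.21, with 5.67 on the TWIST-1 array and 5.46 on the vector array, followed by HIC1 at 0.14. The lowest were PLAAT4 at -0.11 and THEMIS2 at -0.01. The median ratio of 26 genes that make, bind or break down receptor ligands was 0.06, or 0.02 with centred ratios. This median was 0.0023 after loess normalization and 0.0029 after another quantile normalization. Of the 26, 1 was at least 1.2-fold higher (3.85%, against 2.71% of all genes) and 0 were lower (against 2.85%). It was RDH10, which oxidises retinol on the way to retinoic acid, with 6.48 in TWIST-1-transduced cells and 6.12 in vector-transduced cells, a ratio of 0.35 (0.31 centred, 0.34 after loess normalization and 0.34 after another quantile normalization). FABP5, a fatty acid carrier that can hand retinoic acid to PPARD, followed at 0.18. The lowest ratios were -0.23 for HSD17B4 and -0.16 for HSD11B2. HSD17B4 passed 1.2-fold at -0.27 with centred ratios.

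PPARD, a sensor of fatty acids, had the highest level of the family, 8.40 in TWIST-1-transduced cells and 8.23 in vector-transduced cells. Its ratio of 0.18 became 0.13 with centred ratios, 0.22 after loess normalization and 0.24 after another quantile normalization, short of 1.2-fold in each. PPARG, the adipocyte and macrophage member, had 5.34 with TWIST-1 and 5.21 with vector, a ratio of 0.13. PPARA, which drives fatty acid oxidation in liver, had 5.65 on both arrays, a ratio of -0.0041. Of 15 targets of PPAR and LXR receptors measured, 0 were past 1.2-fold, 8 had ratios above 0 and 7 below, and the median was 0.03. This median was -0.01 with centred ratios. The angiopoietin-like gene ANGPTL4 (0.14) and the lipogenic factor SREBF1 (0.13) had the highest ratios, and the scavenger receptor CD36 (-0.23, dim at 2.52 with TWIST-1 and 2.75 with vector) and SMPDL3A (-0.18) the lowest. CD36 passed 1.2-fold under the other 3 scalings, at -0.27 with centred ratios and -0.28 after loess and after another quantile normalization.

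The glucocorticoid receptor NR3C1 had levels of 6.12 in TWIST-1-transduced cells and 6.18 in vector-transduced cells, a ratio of -0.06. The mineralocorticoid receptor NR3C2 (3.38 with TWIST-1 and 3.32 with vector) and the progesterone receptor PGR (2.60 with TWIST-1 and 2.54 with vector) were dim, both with ratios of 0.06, and NR3C2 turned to -0.0036 after loess normalization. Of 14 glucocorticoid target genes measured, 4 were at least 1.2-fold lower and 0 higher, with a median of -0.12, where 2.85% of all genes and 4.11% of genes above the median level were lower. Of the 14, 11 lay above that level on both arrays. This count was 4 under each of the other 3 scalings. ZFP36, an mRNA decay factor, had 7.26 on the TWIST-1 array and 7.98 on the vector array, a ratio of -0.72. DUSP1, a MAP kinase phosphatase, had 6.87 with TWIST-1 and 7.36 with vector, a ratio of -0.49. The kinase gene SGK1 (-0.40) and the repressor gene BCL6 (-0.34) were the other 2, named after their values were seen. SGK1 lay below the median gene level, at 4.24 with TWIST-1 and 4.64 with vector. Within 1.2-fold were FKBP5 (-0.19), TSC22D3 (0.05), KLF9 (0.05) and PER1 (0.03), among others, also named after their values were seen. Of the 14 ratios, 9 were below 0 and 5 above, where 34.8% of all genes and 46.5% of those above the median level were below 0. ZFP36 and DUSP1 are also known as immediate-early genes. ZBTB16 had the highest ratio at 0.23. The next highest was that of CD163, dim at 2.96 with TWIST-1 and 2.83 with vector, with a ratio of 0.13.

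Of 11 steroid receptor chaperone and cochaperone genes measured, 10 lay above the median gene level on both arrays. Of all genes above it 46.5% had ratios below 0, against 34.8% of all genes. At least 1.2-fold lower were 4.11% of genes above it and 2.85% of all genes. The median ratio of the 11 chaperone and cochaperone genes was -0.16 (-0.20 centred, -0.13 after loess normalization and -0.11 after another quantile normalization). Of them 9 had ratios below 0, and 0 were past 1.2-fold. With centred ratios 3 were, and 1 was after loess and after another quantile normalization. The lowest were CHORDC1 (4.94 in TWIST-1-transduced and 5.20 in vector-transduced cells, a ratio of -0.26, short of 1.2-fold) and the HSP90 cochaperone PTGES3 (8.12 with TWIST-1 and 8.37 with vector, a ratio of -0.24). STUB1 (0.06) and FKBP4 (0.03) had the highest ratios.

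Among the estrogen and estrogen-related receptors, only ESRRA, a regulator of mitochondrial genes, lay above the median gene level, at 6.40 in TWIST-1-transduced cells and 6.33 in vector-transduced cells with a ratio of 0.08. ESR1 had 4.14 with TWIST-1 and 4.01 with vector, a ratio of 0.13, and ESR2 had 3.32 with TWIST-1 and 3.27 with vector, a ratio of 0.06 that turned to -0.0043 after loess normalization. ESRRB had 4.33 with TWIST-1 and 4.20 with vector, a ratio of 0.13, and ESRRG, the dimmest receptor, had 2.58 with TWIST-1 and 2.51 with vector, a ratio of 0.08.

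The testicular receptors NR2C1 (TR2) and NR2C2 (TR4), which together repress embryonic globin genes, had ratios of -0.13 and 0.04. NR2C1 had levels of 5.61 in TWIST-1-transduced cells and 5.74 in vector-transduced cells, and NR2C2 had 7.12 with TWIST-1 and 7.07 with vector. NR2C1 was the third lowest of the family and stood at -0.17 under each of the other 3 scalings. NR2F6 (EAR2) had 7.02 with TWIST-1 and 6.93 with vector, a ratio of 0.08, and NR2F1 (COUP-TFI) 5.55 with TWIST-1 and 5.50 with vector, a ratio of 0.05. The photoreceptor gene NR2E3 had the highest ratio of the family, 0.25 (1.19-fold), at dim levels of 4.24 in TWIST-1-transduced cells and 3.98 in vector-transduced cells. NR2E1, the neural stem cell factor TLX, had 4.78 with TWIST-1 and 4.63 with vector, a ratio of 0.16. Genes not above the median level on both arrays had a median ratio of 0.06, and 69.1% of them had a ratio above 0. The 18 receptors among them had a median of 0.09, and 16 had a ratio above 0.

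The thyroid hormone receptor THRA had levels of 7.09 in TWIST-1-transduced cells and 7.01 in vector-transduced cells, a ratio of 0.08. THRB was dim, at 3.65 with TWIST-1 and 3.44 with vector, with a ratio of 0.21 that became 0.15 after loess normalization. The xenobiotic receptor NR1I3 (CAR) had 4.16 with TWIST-1 and 4.001 with vector, a ratio of 0.16. NR5A1 (SF-1), a regulator of steroid synthesis, had 5.27 with TWIST-1 and 5.15 with vector, a ratio of 0.11, and NR5A2 (LRH-1) had 2.85 with TWIST-1 and 2.84 with vector, a ratio of 0.01 that turned to -0.03 with centred ratios. NR6A1, the germ cell nuclear factor, had 5.14 with TWIST-1 and 5.21 with vector, a ratio of -0.07. NR0B2 (SHP), an atypical receptor without a DNA-binding domain, had 5.05 with TWIST-1 and 4.98 with vector, a ratio of 0.07. HNF4G had 2.89 on both arrays, a ratio of 0 that was -0.04 with centred ratios.

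**Figure D3:**
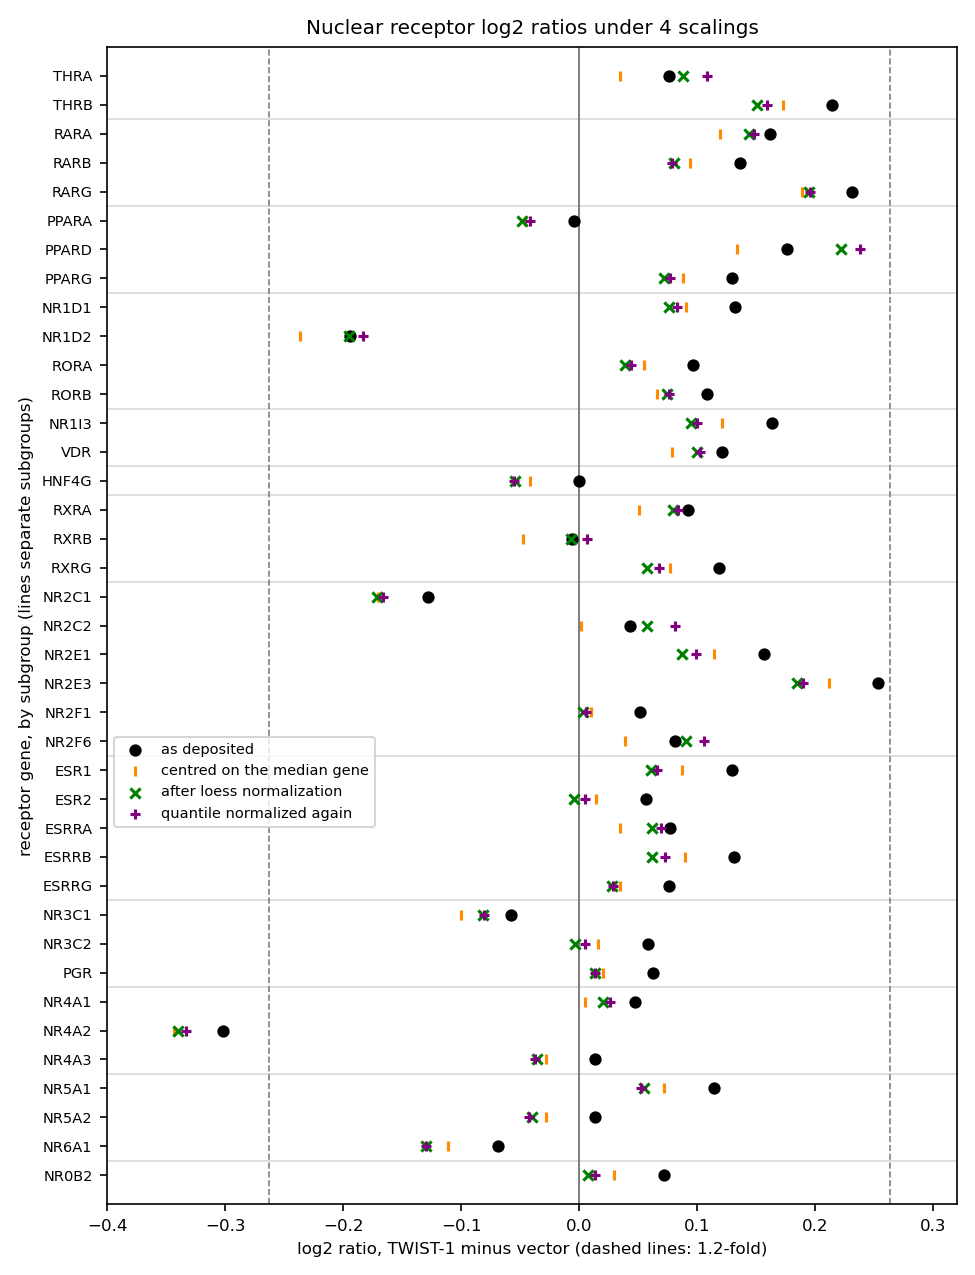
Log2 ratio (TWIST-1 minus vector, horizontal axis) of each of the 39 receptors (rows, by subgroup) as deposited and under 3 other scalings, with dashed lines at 1.2-fold. NR4A2 lies outside the lines under all 4 scalings, and NR1D2 and NR2C1 stand apart from the receptors with ratios above 0.

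Receptors act through coactivators, which open chromatin and contact the transcription machinery, and corepressors, which recruit histone deacetylases. Of 16 coactivator genes measured, 2 were at least 1.2-fold lower and 0 higher, 11 had ratios below 0, and the median was -0.10. All 16 lay above the median gene level on both arrays, and of all genes above it 4.11% were lower by that rule and 46.5% had ratios below 0. NCOA4, which is also the receptor for ferritin autophagy, had levels of 8.57 in TWIST-1-transduced cells and 8.92 in vector-transduced cells, a ratio of -0.35 (-0.28 after another quantile normalization). KAT2B, the acetyltransferase PCAF, had 6.06 with TWIST-1 and 6.35 with vector, a ratio of -0.29. The methyltransferase gene PRMT1 (0.12) and PPARGC1A (0.09) had the highest ratios. Of 11 corepressor genes measured, 0 were past 1.2-fold and the median was 0.04, or 0.0011 with centred ratios. TBL1XR1, a subunit of the NCOR complex, had the lowest ratio at -0.19, followed by SAFB at -0.17. The hairless gene HR (0.17) and NRIP1 (0.08) had the highest.

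**Figure D4:**
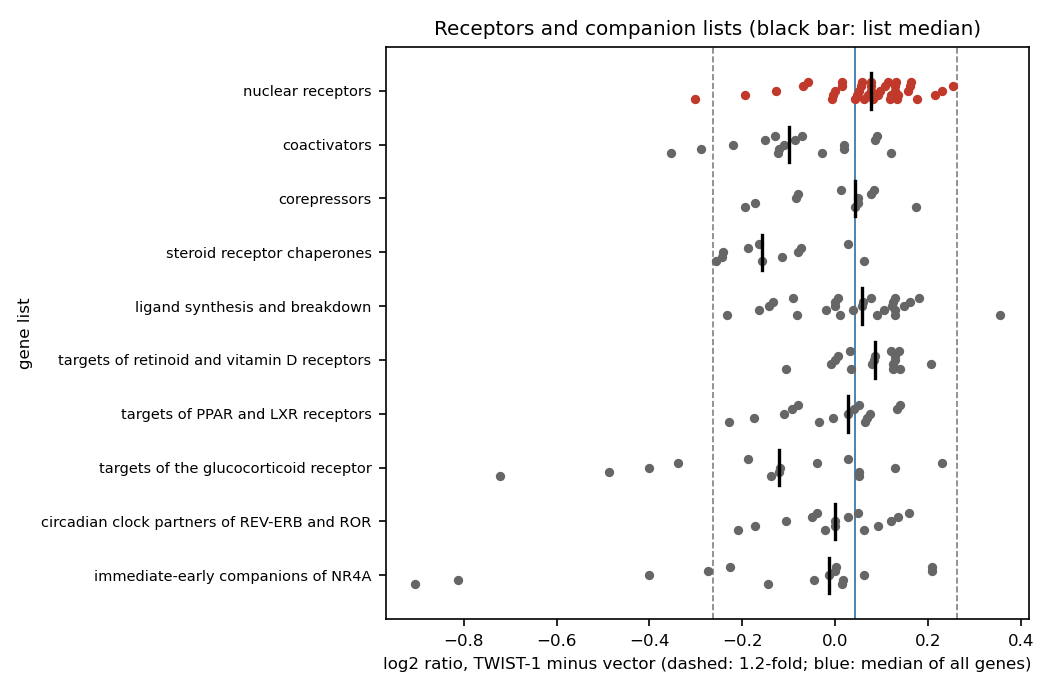
Log2 ratios (TWIST-1 minus vector) of the 39 receptors in red and of 9 lists of partner and target genes in grey, 1 point per gene, with a black bar at each list's median and a blue line at the median of all genes (0.04). The steroid receptor chaperones (-0.16), glucocorticoid receptor targets (-0.12) and coactivators (-0.10) have the lowest medians of these lists. In the same order, 10 of 11, 11 of 14 and 16 of 16 of their genes lie above the median gene level on both arrays. All genes above that level have a median ratio of 0.0034. After another quantile normalization the medians of these lists are -0.11, -0.08 and -0.07. Some genes stand in more than 1 list, so the lists are not independent. FKBP5 is among both the chaperones and the glucocorticoid receptor targets, and PER1 among both the latter and the clock partners. DHRS3 is among both the ligand genes and the retinoid and vitamin D receptor targets.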

How the data were processed

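RNA of TWIST-1-transduced and vector-transduced U937 cells was measured on 1 array each. The authors deposited log2 values, 1 for each of 70523 rows, and describe them as quantile normalized. The sorted values of the 2 arrays still differed by up to 0.14. The labels name Affymetrix Expression Console. Its version, probe summarisation and background correction are not given here by the labels or methods. The number of arrays limits the precision.

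Of the rows, 23781 carried 1 gene symbol, 1543 carried several and were not used, and 45199 are unnamed here. Symbols were updated through RefSeq gene identifiers (GRCh38.p14) for 21497 rows, and the others kept the symbol they had. A gene was represented by its row with the highest mean level. Receptors and gene lists were chosen with earlier results of these data known. All measured receptors are named, and of each gene list the 2 highest and the 2 lowest log2 ratios. Others are marked where named after their values were seen. Genes were counted at 1.2-fold with no filter on dim rows and no test.

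Alternatives were log2 ratios less that of the median gene (centred ratios), cyclic loess (span 0.7, 3 iterations), a further quantile step, the mean of a gene's rows, an offset of 16, genes at or above the median level, a 1.5-fold threshold, protein-coding genes as background and the upper quartile as level threshold. The counting was tested on simulated data. R 4.3.3 with limma 3.58.1 and Python 3.11.15 with numpy 2.4.6, pandas 2.3.3 and matplotlib 3.10.9 were used. A search of receptor proteins for the DNA-binding domain was not run.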

Additional observations from a re-analysis of the deposited data

How the results depend on the processing

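The number of receptors at least 1.2-fold lower, 1 as deposited, was 0 with the offset of 16, which shrinks log2 ratios, and 0 at 1.5-fold. It was 1 under the 3 other scalings, of which centring could only move the ratio of NR4A2 further below 0. It was also 1 with the mean of a gene's rows and with dim genes left out. Neither of those could remove NR4A2, which has 1 row and lies above the median level on both arrays, so they are no check of it. The number at least 1.2-fold higher was 0 under each alternative run. Above the upper quartile in place of the median were 7 receptors on the TWIST-1 array and 6 on the vector array, against 21 and 22 above the median, and the stricter threshold accounts for this. Above the median of protein-coding genes were 17 on each array. The median log2 ratio of the receptors lay between 0.03 and 0.08 under each alternative run. Single ratios of receptors moved by less than 0.13 under the 5 alternatives run for them. The figure of 0.13 is the SD of log2 ratios between main-chromosome rows of 1 gene over 280 genes. It does not measure error from scaling and exceeds the median receptor ratio of 0.08, so staying within it is a weak criterion. With the offset of 16 the ratio of NR2E3 fell from 0.25 to 0.13 and that of THRB from 0.21 to 0.09. No paired analysis was possible because each condition has 1 array. A level below the median gene may be background, so ratios of dim receptors are the least certain.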

Other observations

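The values of HNF4G were identical on both arrays, and so were those of 1177 of the 22465 genes (5.24%), of which 331 lay above the median level on both arrays. In the gene lists these included PER3 at 6.59 and BHLHE41 at 5.78, 2 clock genes, the immediate-early regulator SRF at 8.06 and the retinoic acid-binding protein gene CRABP2 at 5.87. Identical values were found for these 331 of the 11038 genes above that level, and for 846 of the other 11427 (7.40%).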
